A study of Drosophila melanogaster with 3 samples.

Results

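Programmed cell death in Drosophila is released by a small set of inducer proteins and carried out by caspases. The inducers Rpr, Hid, Grim and Skl bind the inhibitor Diap1 and take it off the caspases that it holds in check. The initiator caspase Dronc is then activated on a scaffold built from Dark, the fly counterpart of Apaf-1, and p53 switches on inducer genes after DNA damage. The inducer genes are known for long regulatory regions that turn them on in chosen cells of the embryo, and for a stretch upstream of rpr that answers to radiation and p53.

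The 8 genes described here are 4 inducers (rpr, hid, grim and skl, which lie in a row on chromosome arm 3L) and 4 genes of the caspase machinery and its control (Diap1, Dronc, Dark and p53), out of 13945 protein-coding genes on the 6 chromosome arms. They were chosen by function and by name, and all 8 matched the Ensembl annotation. The data come from ChIP-seq, the sequencing of DNA pulled down with a chromatin protein, on 3 biological replicates of whole mixed-sex embryos aged 0 to 24 h, and all 3 form 1 group. All were of the transgenic strain labelled caup-GFP (its fusion protein is also labelled caup-eGFP), which stably expresses the Iroquois homeobox factor caup with GFP at its C terminus, and the pull-down used an anti-GFP antibody. Whole embryos mix all tissues and stages, so strong binding in few cells and weak binding in many cannot be told apart.

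A region counts for a gene where its summit, the position of strongest enrichment, lies in the gene body or within 5 kb of it. The optimal set is the authors' list of 6056 peaks that are reproducible between replicates. It is identical to the 6056 strongest of the 30000 regions called on the pooled replicates, so pooled regions below it are weaker than any optimal peak. The signal value is the authors' enrichment statistic for a region. It runs from 209 to 6496 in the optimal set, with a median of 333, and is comparable only within a list. A rank is the place of a region in its list by signal value, with the strongest at 1, and the top of a replicate means its 6056 strongest regions. The files give no read counts, so the depth of the libraries is unknown.

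Diap1, p53 and rpr, with hid, had optimal peaks at or near their own start sites. Dronc and Dark had only weaker regions there, and grim and skl had none. Of the 4 inducers, hid and rpr (2 genes) had an optimal summit in the window, and of the 4 machinery genes Diap1, Dark and p53 (3 genes) had one. Over all protein-coding genes the share was 54.4%, and with 4 genes in each set neither count can be set apart from it. A pooled region, strong or weak, lay in the window of 6 of the 8 genes, beside 81.6% of protein-coding genes, and within 1 kb of a start site of the same 6 genes, beside 53.8%. The 4 inducer windows, 61.9 kb in all, held 3 optimal summits, and the 4 machinery windows, 66.3 kb in all, held 13. A further 9 optimal summits lay between the inducers outside these windows, which makes 25 distinct optimal summits described here.

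The sequences under the peaks that the results turn on are given below, from the Drosophila release 6 assembly (dm6) in the RefSeq copy, on the strand of the gene and from 5′ to 3′. They cover 100 bases to each side of the summit, trimmed where a coding or untranslated exon of a protein-coding gene begins. Capitals mark matches to 11 motifs searched on both strands. These are the Iroquois palindrome ACANNTGT, the DNA replication-related element TATCGATA (bound by Dref at housekeeping promoters) and the Ohler 1 core promoter fragment GGTCACAC. The TATA box was searched as TATAAA, the GATA factor motif as GATAAG, the GAGA factor motif as GAGAG and the early embryonic motif as CAGGTA. The E-boxes were searched as CATATG and as CAGCTG, the remaining motif as ACACTG, and the p53 decamer by its consensus. Where matches overlap, the capitals run together.

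The promoter peaks of p53 (chr3R:23054083-23054236, minus strand), rpr (chr3L:18398436-18398550, minus strand) and Dronc (chr3L:9968321-9968478, plus strand, below the optimal set) are shown first, to compare promoters of different strength. Each ends at the last base before the start site.
p53 promoter: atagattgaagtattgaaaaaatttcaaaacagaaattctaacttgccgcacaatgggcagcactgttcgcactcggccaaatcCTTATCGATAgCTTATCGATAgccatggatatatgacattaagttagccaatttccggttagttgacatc
rpr promoter: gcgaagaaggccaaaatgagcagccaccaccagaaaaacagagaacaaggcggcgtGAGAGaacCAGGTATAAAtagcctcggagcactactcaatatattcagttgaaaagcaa
Dronc promoter: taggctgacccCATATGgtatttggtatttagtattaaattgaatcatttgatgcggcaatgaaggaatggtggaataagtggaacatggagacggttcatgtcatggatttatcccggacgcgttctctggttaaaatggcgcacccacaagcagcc

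The p53 promoter carried 2 copies of TATCGATA at its summit, and neither other promoter shown had a copy. The Diap1 peak 33 bp from a start site, not shown, had none either, with a signal value of 412 against 258 at rpr. A link of the motif with promoter strength was not tested. The first copy, at 57 to 50 bp upstream of the start site, spans the summit position itself. The second lies 7 bp from the summit, at 68 to 61 bp upstream. Each copy also overlaps a match to GATAAG on the other strand, so these 2 motifs are not separate here. Over all 6056 optimal summits, 3.62% had at least 1 copy of TATCGATA within 100 bp and 16 summits (0.264%) had 2 or more. Of the 25 optimal summits described here 2 held it, that of p53 and the peak 79 bp from the start site of Ehbp1 in the Dark window. The rpr promoter had no copy but held CAGGTA overlapping TATAAA, at 51 to 42 bp upstream of the annotated start site. CAGGTA was at 4.14% of optimal summits and TATAAA at 30.5%. The Dronc window held CATATG, which was at 7.56% of optimal summits.

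Next come the strongest peak at Diap1, the strongest between hid and grim and the peak upstream of hid: hid upstream (chr3L:18185959-18186159), the interval from hid to grim (chr3L:18281315-18281515) and a Diap1 intron (chr3L:16046059-16046259), all on the minus strand.
hid upstream: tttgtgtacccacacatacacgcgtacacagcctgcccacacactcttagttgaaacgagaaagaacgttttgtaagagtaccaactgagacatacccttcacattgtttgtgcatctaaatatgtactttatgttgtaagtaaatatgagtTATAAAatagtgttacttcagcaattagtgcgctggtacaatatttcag
hid-grim interval: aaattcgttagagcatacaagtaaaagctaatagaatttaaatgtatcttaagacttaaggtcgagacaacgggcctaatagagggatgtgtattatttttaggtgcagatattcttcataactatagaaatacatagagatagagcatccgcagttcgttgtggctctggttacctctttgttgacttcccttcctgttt
Diap1 intron: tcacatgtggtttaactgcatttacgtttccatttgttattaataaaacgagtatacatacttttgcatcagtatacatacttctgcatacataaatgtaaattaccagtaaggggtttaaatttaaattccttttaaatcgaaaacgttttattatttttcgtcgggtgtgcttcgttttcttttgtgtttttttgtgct

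Neither the strongest Diap1 peak nor the strongest peak between hid and grim held any of the 11 motifs. The Iroquois palindrome ACANNTGT was within 100 bp of 3 of the 25 optimal summits, and of 11.5% of all optimal summits. All 3 lay in machinery windows, and 1 of them was in an untranslated exon of Diap1 and is not shown. The others, in a Diap1 intron (chr3L:16048217-16048417, minus strand) and downstream of p53 (chr3R:23048778-23048978, minus strand), are printed because they hold the palindrome linked to the tagged protein's family.
Diap1 intron with palindrome: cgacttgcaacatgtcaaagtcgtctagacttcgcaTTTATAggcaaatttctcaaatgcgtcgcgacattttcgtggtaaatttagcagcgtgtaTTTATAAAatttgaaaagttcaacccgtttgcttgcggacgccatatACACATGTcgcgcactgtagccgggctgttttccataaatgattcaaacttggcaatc
p53 downstream with palindrome: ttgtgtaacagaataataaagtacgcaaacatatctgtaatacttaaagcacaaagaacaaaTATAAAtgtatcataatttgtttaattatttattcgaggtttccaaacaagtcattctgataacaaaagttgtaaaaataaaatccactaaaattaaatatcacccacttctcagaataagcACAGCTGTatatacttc

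In the Diap1 window the palindrome lay 43 bp from the summit, and in the p53 window 84 bp from it. The second overlaps CAGCTG, an E-box.

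The inducers are described first. Hid (FBgn0003997, 3L at 18167745 to 18185641, minus strand) encodes the inducer that Ras and MAP kinase signals hold down. It had 2 optimal peaks. The stronger, at 18185849 to 18186268, lay in intergenic sequence 418 bp upstream of the start site with a signal value of 337 (rank 2969 of the pooled list). The replicate regions that hold this summit had signal values of 86.2 (rank 5142) in replicate 1, 105 (rank 2179) in replicate 2 and 154 (rank 2675) in replicate 3. It was in the top of all 3, lowest by rank in replicate 1, and the 3 replicate summits lay within 4 bp. The other peak, in an intron 5641 bp downstream of the start site, had a signal value of 266 and ranks of 7239, 5652 and 4352, which leaves it outside the top of replicate 1. The window held 9 weaker pooled regions, the strongest at 79.9.

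Rpr (FBgn0011706, 3L at 18397535 to 18398435, minus strand), the first inducer found in the fly, had 1 optimal peak, at 18398240 to 18398659. Its summit lay 15 bp upstream of the start site, with a signal value of 258 (rank 4501). Replicate 1 gave 95.6 (rank 4334), replicate 2 gave 42.2 (rank 8502) and replicate 3 gave 128 (rank 3654). Replicate 2 stood apart as the lowest and placed the region outside its top, so the rpr peak rests on replicates 1 and 3. The replicate summits spread over 66 bp.

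The stretch upstream of rpr held only weak regions. Pooled regions with summits 4540, 4822 and 5028 bp upstream of the start site had signal values of 96.2, 148 and 120, all below the optimal set. They are neighbours whose spans overlap, and the last lies just outside the 5 kb window. The strongest ranked 9325 in the pooled list and 16373, 9706 and 6839 in replicates 1, 2 and 3, so a region was called there in each replicate, highest by rank in replicate 3. None of these 3 summits had an exact match to the p53 decamer consensus within 100 bp. A p53 site that departs from the consensus would have been missed by this search. A region 884 bp upstream of rpr held the Iroquois palindrome, but its signal value of 52.4 ranked 28403 and no replicate had a region at its summit.

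Grim (FBgn0015946, 3L at 18302719 to 18304417, minus strand) had no region within 5 kb in the optimal or pooled list or in any replicate. Of all protein-coding genes, 6.88% had no region in the pooled list or in any replicate. Skl (FBgn0036786, 3L at 18438561 to 18439942, minus strand), the inducer named sickle, had none in the pooled list and 1 in replicate 2, at a signal value of 18.0 and rank 26893. The nearest optimal summits lay 21304 bp from grim (signal value 499) and 21248 bp from skl (520). The depth is unknown, so this says only that no optimal or pooled region was detected beside these genes.

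**Figure D1:**
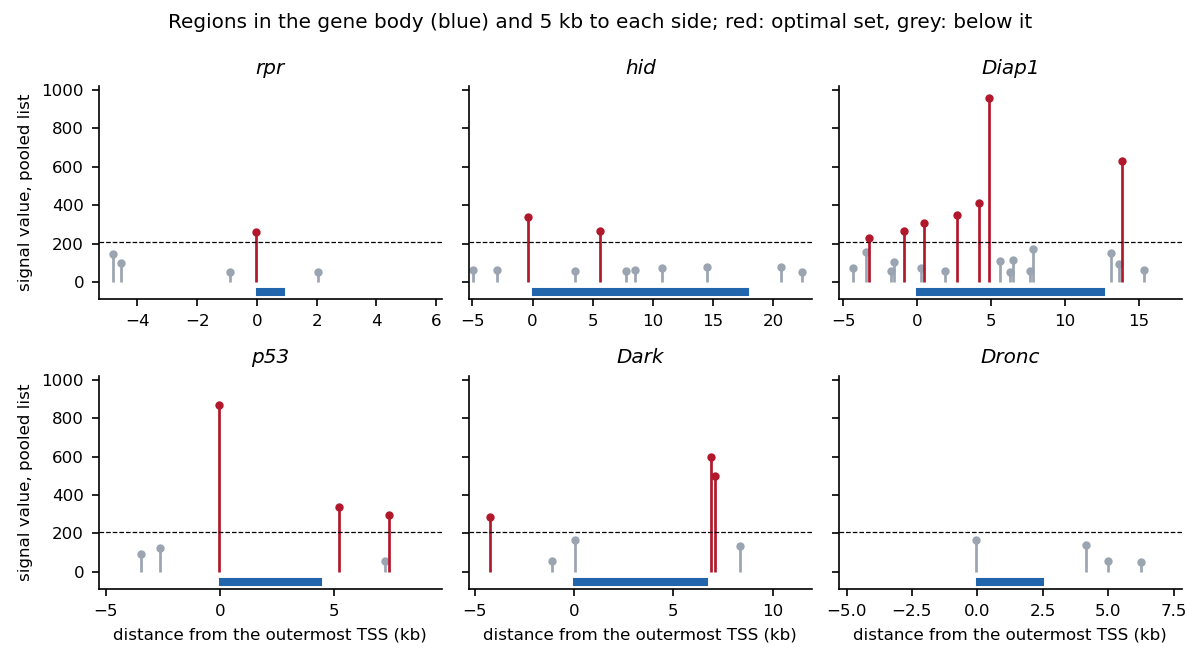
Signal value of each pooled region against the distance of its summit from the outermost annotated start site (kb, positive downstream), for the 6 genes with a pooled region in the window; the blue bar is the gene body, the dashed line the lowest optimal value of 209. Diap1 has 7 red optimal peaks and p53 its tallest at the start site. The red peaks of Dark stand near the upstream end of the window and just past the gene body, with a grey one at the start site.

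Over the whole locus, from hid to skl with 5 kb to each side, optimal summits came to 0.425 per 10 kb, close to the 0.452 over the 6 arms, and they were spread unevenly. The intervals from hid to skl, 250.3 kb of sequence between the gene bodies, held 11 optimal summits. These include the peaks upstream of hid and at the rpr start site, and 7 of the 11 were in the top of both replicates 1 and 2 when replicate 3 was left out. From hid to grim, 117.1 kb held 9, or 0.769 per 10 kb. From grim to rpr, 93.1 kb held 1 (0.107 per 10 kb), and from rpr to skl, 40.1 kb held 1 (0.249 per 10 kb), the rpr promoter peak. The pooled list, which reaches into weak regions, gave the same order, with 4.01, 1.40 and 1.74 regions per 10 kb against 2.24 over the arms. The replicates gave 35, 37 and 42 regions from hid to grim, 10, 19 and 15 from grim to rpr and 6, 8 and 8 from rpr to skl. Per 10 kb, replicates 1 and 3 kept the order of the pooled list. In replicate 2 the density was 2.04 from grim to rpr and 1.99 from rpr to skl, so the order of this pair was reversed.

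The strongest peak of the locus lay nearer to grim than to hid. It was at 18281297 to 18281471, in intergenic sequence 12847 bp from the start site of CG5103, with a signal value of 499 (rank 1549). It ranked 1245, 2357 and 1911 in replicates 1, 2 and 3, in the top of each. Next came a peak 7371 bp upstream of hid at 18192802 to 18193221, with the start site of lncRNA:CR45234 nearer, at 3160 bp. It had a signal value of 396 and ranks of 4052, 2695 and 1762. It is stronger than either hid peak and lies just outside the 5 kb window, while the peak 418 bp from hid lies well inside it.

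The other 6 optimal peaks from hid to grim beyond the hid window fell into a pair of groups by nearest start site. Near lncRNA:CR45937, peaks of 227, 344 and 212 lay 1240, 1840 and 3969 bp from its start site, and that of 344 was in the top of all 3 replicates. That of 212 was in the top of replicate 3 only, with ranks of 6721, 10229 and 5327. Nearest to CG7320, peaks of 319, 223 and 275 lay 10837, 11038 and 14336 bp from its start site. The first 2 of these overlap and fall in the same region in replicates 1 and 3, so they are not independent. From grim to rpr the optimal peak, at 18348581 to 18349000, had a signal value of 287 and ranks of 5080, 3472 and 4287. It lay 24806 bp from the nearest start site, that of lncRNA:CR46353.

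**Figure D2:**
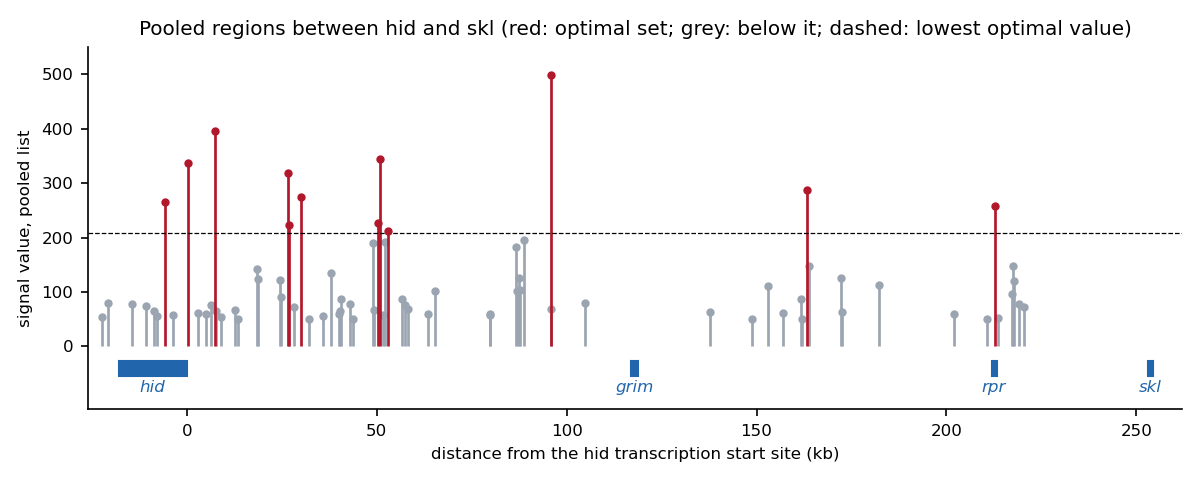
Signal value of each pooled region in the windows of and intervals between the inducers against distance from the hid start site (kb, positive toward skl); red points are optimal peaks, grey points weaker regions, blue boxes the 4 inducer genes. Red points crowd the first 100 kb beside hid, the tallest at 499, while the surroundings of grim and skl are empty.

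The 9 peaks beyond the gene windows all lay over 1 kb from any start site, with a median distance of 10837 bp, against 471 bp for all optimal summits. Leaving out the windows removes the peaks near hid and rpr and so favours long distances, and over all 11 summits of the intervals the median was 3969 bp. Their windows had a median of 33.8% G and C, against 37.8% over all optimal summits and 40.8% at the 13 machinery summits. Of the 9, 6 were in the top of all 3 replicates, beside 62.7% of all optimal peaks. Another 2 were in the top of 2 replicates and 1 in the top of 1. The p53 decamer matched at 2 of the 9 (signal values 344 and 275), and at 4.01% of all optimal summits. These are descriptions with no test.

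Among the machinery genes Diap1 had the most peaks. Diap1 (FBgn0260635, 3L at 16038410 to 16051034, minus strand), the ubiquitin ligase that binds and inhibits caspases, has 5 annotated start sites and had 7 optimal summits in its window. Only 0.982% of protein-coding genes had at least as many, a share that is not adjusted for gene length. Its 21 pooled regions made 9.28 per 10 kb. The density over the whole arms was 2.24, which is not a value for gene windows.

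The strongest Diap1 peak, at 16045782 to 16046370, lay in an intron 687 bp downstream of an internal start site with a signal value of 956 (rank 453). Replicate 1 gave 325 (rank 441), replicate 2 gave 282 (rank 363) and replicate 3 gave 379 (rank 521), so it was among the strongest regions of every replicate. A peak 33 bp downstream of that start site had a signal value of 412 and ranks of 1287, 3005 and 3304. Another peak, 87 bp downstream of another start site near the outer end of the gene, had a signal value of 309 and ranks of 2047, 3227 and 5307. The peak with the palindrome shown above had a signal value of 348 and ranks of 3498, 2268 and 3139. It lay 1471 bp from a Diap1 start site, with that of lncRNA:CR43951 nearer, at 918 bp. All of these Diap1 peaks were in the top of all 3 replicates.

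The remaining 3 peaks in the Diap1 window also lay nearer to the start sites of other genes, here those of neighbours. A peak of 629 (ranks 968, 1187 and 903) lay in a 3′ untranslated exon of CG5895, 1497 bp from the start site of that gene. A peak of 264 lay 23 bp from the start site of Mbs, which encodes the targeting subunit of myosin phosphatase and whose start site lies upstream of Diap1. The peak of 231 lay in an intron of Mbs and was outside the top of replicate 1 (ranks 9684, 5236 and 4148).

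P53 (FBgn0039044, 3R at 23049657 to 23054082, minus strand), the damage-responsive transcription factor, had 3 optimal summits. The promoter peak, at 23053999 to 23054270, had its summit 54 bp upstream of the outermost of 3 start sites, within an exon of the antisense gene asRNA:CR46089, and a signal value of 869 (rank 547). Replicate 1 gave 329 (rank 434), replicate 2 gave 222 (rank 577) and replicate 3 gave 329 (rank 700). The 3 replicate summits lay within 7 bp, and the pooled summit falls in the first TATCGATA shown above. The peaks of 336 and 298 downstream of p53 lay 664 and 1546 bp from the start site of CG17121, and were in the top of all 3 replicates.

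Dark (FBgn0263864, 2R at 17020027 to 17026703, plus strand) had 3 optimal summits in its window, and all lay nearer to the start site of another gene. The stronger pair, 596 and 499, overlap between the 3′ end of Dark and RhoGEF2, with summits 287 and 84 bp from its start site. The first is also 90 bp from the start site of asRNA:CR44390. Both summits fall in the same region in replicate 1 (rank 1360), in replicate 2 (rank 1160) and in replicate 3 (rank 1083). The peak of 283 lay 79 bp from the start site of Ehbp1 and ranked 2323, 7852 and 5135, outside the top of replicate 2. At its own promoter Dark had a weaker region 69 bp downstream of the start site, with a pooled signal value of 164 (rank 8203). It ranked 12249, 9793 and 7240, outside the top of every replicate.

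Dronc (FBgn0026404, 3L at 9968479 to 9971002, plus strand) was the machinery gene without an optimal peak. Its promoter region, 58 bp upstream of the start site, had a pooled signal value of 168 (rank 7951). Replicate 1 gave 55.4 (rank 9381), replicate 2 gave 36.3 (rank 10383) and replicate 3 gave 81.0 (rank 7003). A region was thus called at the Dronc promoter in every replicate and fell below the top in each. The lowest optimal peak had a value of 209. The nearest optimal summit lay 69260 bp away.

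**Figure D3:**
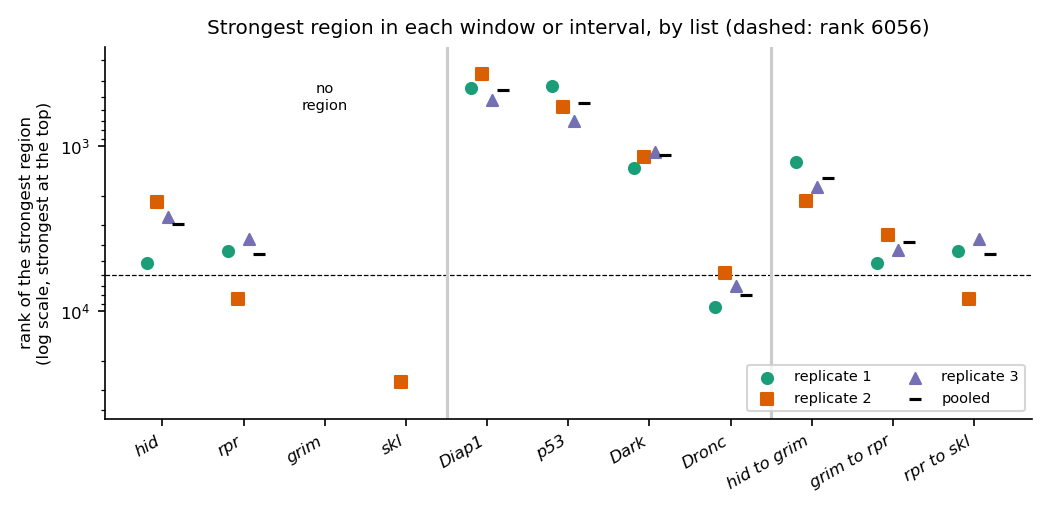
Rank of the strongest region in each gene window and each interval between inducers (log axis, strongest at the top) in replicates 1 to 3 and in the pooled list; the dashed line is rank 6056. Diap1, p53 and Dark lie above the line in all lists, rpr falls below it in replicate 2, Dronc lies above it only in replicate 2 (rank 5849, at another region of its window), and grim has no point.

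Set side by side, the machinery windows held more regions than the inducer windows in every list. Optimal summits came to 1.96 per 10 kb at the machinery and 0.485 at the inducers, beside 0.452 over the whole arms. The arm value takes in all sequence, and 61.1% of optimal summits lay within 1 kb of a start site. It is not a density over gene windows, and none was computed over all genes. Regions of replicates 1, 2 and 3 numbered 32, 35 and 37 in the machinery windows and 9, 12 and 13 in the inducer windows. In the top of those replicates the numbers were 11, 13 and 16 against 2, 2 and 3. Leaving out replicate 3, by asking that a peak be in the top of replicates 1 and 2, left 1 of the 3 inducer summits and 11 of the 13 machinery summits. The strongest pooled region of each gene had a median percentile of 97.2 over the machinery genes. Over the inducers it was 42.5, where the 2 genes without a pooled region were counted at 0. No inducer lay near 42.5, since hid was at 90.1 and rpr at 85.0. The Dark value used here, 96.2, belongs to the summit 90 bp from the start site of asRNA:CR44390 and 287 bp from that of RhoGEF2. The region at Dark's own promoter was at 72.7, and the strongest of Dronc at 73.5. The genes are not replicates of a condition, so no test is given.

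The contrast in counts rests largely on Diap1 and on neighbouring genes. Diap1 alone supplied 7 of the 13 machinery summits, and without it the other 3 genes had 6, or 1.38 per 10 kb. Only 4 of the 13 machinery summits were nearest to a start site of the member gene, against all 3 of the inducer summits. Counting promoters, 2 inducers (hid and rpr) and 2 machinery genes (Diap1 and p53) had an optimal summit within 1 kb of a start site, against 27.6% of protein-coding genes. By the strongest summit within 1 kb of a start site the order was Diap1 (956), p53 (869), hid (337) and rpr (258). Over the 3843 genes with such a summit the median of the strongest was 390.4. The Diap1 summit of 956 lies in an intron 687 bp from a start site. The Diap1 peak 33 bp from that start site had a value of 412, below that of p53.

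**Figure D4:**
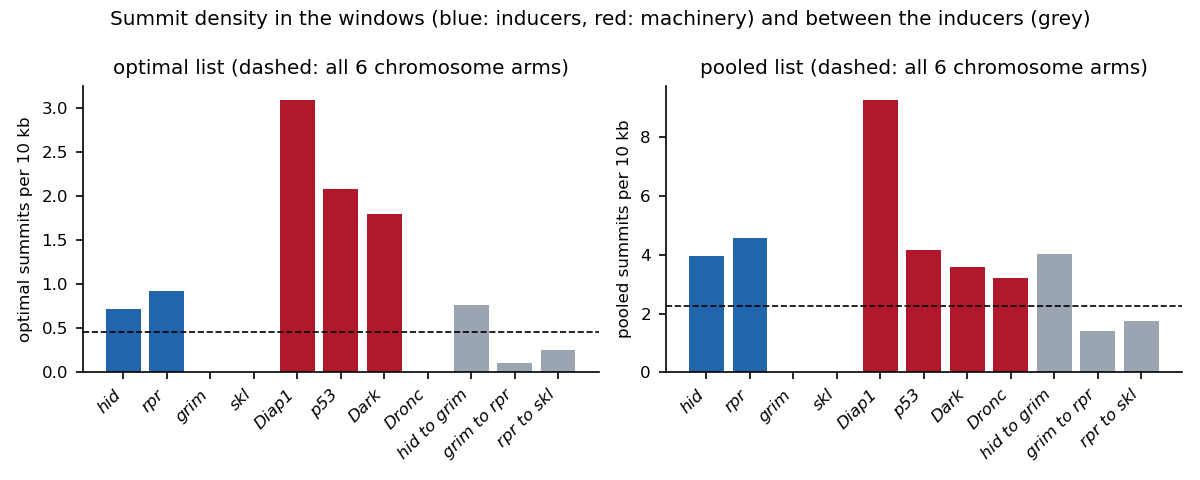
Summits per 10 kb in the windows of the inducers (blue) and the machinery genes (red) and in the intervals between inducers (grey). The optimal list is on the left and the pooled list on the right. Dashed lines are the density over the whole of the 6 arms, 0.452 and 2.24, and not over gene windows. Diap1 is the highest bar in both, and the bars of grim and skl are at 0.

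The wider cell death pathway was taken from 9 lists with 68 genes found in the annotation. Of these, 33 (48.5%, Wilson 95% interval 37.1 to 60.2) had an optimal summit within 1 kb of a start site, beside the 27.6% of all protein-coding genes. The lists were chosen with earlier results known and genes are not replicates, so the interval is no test against that share. In the gene body plus 5 kb the count was 56 (82.4%), beside 54.4%. Gene lengths in the lists were not compared with those of all genes, and these shares are not adjusted for length. Of the 33 promoter summits 21 (63.6%) were in the top of all 3 replicates, close to the 62.7% of all optimal peaks. Of the 33, 7 were nearer to the start site of another gene.

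By role, each list holds few genes, and its count stands beside the 27.6% of all protein-coding genes. Mitochondrial and Bcl-2 family genes had 6 of 8 with a promoter summit. The highest were Cyt-c-d (1239), which encodes a cytochrome c, Marf (801), a mitochondrial fusion factor, and Cyt-c-p (606), the other cytochrome c. The Cyt-c-d summit was nearer to CG31808. That of Cyt-c-p lay 954 bp from its start site, just inside the limit of 1 kb, and the strongest value in its window was also 1239. Autophagy genes had 6 of 9, led by Atg18a (496) and Atg7 (427), whose summit was nearer to Sec6. The TNF and JNK list had 6 of 10, led by Traf6 (595), kay (463), which encodes Fos, and puc (434), the JNK phosphatase.

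Among the lists of genes that act on the caspases, few genes are listed and the counts cannot be set apart from the 27.6% of all protein-coding genes. Of 6 further caspases, Drice (239) and Strica (224) had one, and of 5 inhibitors and regulators of Diap1-like proteins only HtrA2 (292) did. These names were taken after their values were seen. The strongest promoter summit of Drice, the main effector caspase, was in the top of 1 replicate and that of Strica in the top of 2. Corpse clearance genes had 3 of 7, led by ced-6 (494), an engulfment adaptor. Genes listed for acting on inducer transcription had 6 of 13, led by lola (536). Damage response genes had 2 of 5, and DNA fragmentation genes 1 of 5. These small lists, too, stand beside the same 27.6%.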

How the data were processed

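ChIP-seq regions of 3 replicates were analysed on dm6. According to deposited README notes, the authors called each replicate's regions against a control alignment (not analysed here), called pooled regions from the 3 alignments, and kept an optimal set by irreproducible discovery rate. For the aligner and the caller, and for the threshold of the rate, no name or value is given in the sources used here. The signal value of each region was used as deposited, without scaling, because its scale and the depth are unknown. Lists on dm3 were not used, and no sample column was left unmapped. Summits were start plus offset; coordinates are 1-based. Genes came from Ensembl release 115 and sequence from Drosophila assembly release 6, whose arms contain every region. A replicate's value at a peak is that of its strongest region holding the pooled summit. Named genes were the 8 members, the 10 other cell death genes with the strongest promoter summits, the genes nearest to member summits, and 3 genes most like the strongest member; genes named outside this rule are marked in the text as chosen after their values were seen. Members, lists and motifs were chosen with earlier results of these data known. With 1 group, nothing was tested. Of 69 listed names 1 found no match. Intervals cover counting error only. Counting was tested on simulated data. Python 3.11.15, pandas 2.3.3 and scipy 1.17.1 were used. Alternatives changed the window, distance, threshold, replicate support, overlap, merging and nearest-gene rule.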

Additional observations from a re-analysis of the deposited data

How the results depend on the processing

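Of 87 alternative values for 11 results, 67 stayed within 1.5 times the main count or 1 SD of the replicates. With the optimal peaks above the median signal value only, the inducer windows held 1 summit, 1 inducer had a summit in the window and 1 within 1 kb of a start site, the machinery windows held 8 summits, the intervals between inducers 4, and 15 other cell death genes had a promoter summit. Of all optimal peaks, 62.7% were in the top of all 3 replicates. With only these, the inducer windows held 1 summit, 1 inducer had one in the window, 1 at the promoter, and the intervals held 7. When the 2 replicates other than the one left out had to hold the summit, the inducer windows held 1 to 2 summits, 1 to 2 inducers had one in the window, 1 to 2 at the promoter, and the intervals held 7 to 9. The rpr peak was lost without replicate 1 and without replicate 3, since both choices need replicate 2. The machinery count was 5 when a summit counted only for the nearest protein-coding gene, and 6 with Diap1 left out, an alternative chosen after seeing the data. The machinery median percentile was 97.0, 97.1 and 97.0 in replicates 1, 2 and 3. No paired analysis was possible because there is 1 group. Unknown depth limits every statement that a region was not detected.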

Other observations

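By a rule over the percentiles of the strongest region in the pooled list and the 3 replicates, the protein-coding genes most like Diap1 among the 55 others with 7 optimal summits in the window were Bacc, Moe, which encodes the cytoskeletal linker Moesin, and Amph, which encodes Amphiphysin. Their distances from Diap1 were 0.388, 0.676 and 0.794 percentile points, and their strongest signal values were 943, 1061 and 868 against 956. These 4 values per gene come from lists that share reads, so the likeness is a description.

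Several cell death genes had a stronger peak elsewhere in the window than at a start site. At zfh2, a zinc finger and homeobox factor, the promoter summit had a signal value of 246 and the strongest in the window 1260. At EcR, the ecdysone receptor gene, the values were 269 and 881, and at Jra, which encodes Jun, 237 and 607. At tefu, whose promoter summit was nearer to Hsc70-4, they were 290 and 3050. These genes were chosen after their values were seen. The window takes in the start sites, so its strongest value is never below that of the promoter. Whether the stronger peaks lie at start sites of neighbours was not checked, and no share over all genes was computed.

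Between hid and grim a group of regions just missed the optimal set. The strongest, with signal values of 195, 192 and 191, ranked 6568, 6672 and 6749 in the pooled list. The region of 191 lay 134 bp from the start site of lncRNA:CR45937 and ranked 5870, 6775 and 9307 in replicates 1, 2 and 3.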
